A study of Gallus gallus with 6 samples.

Results

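The molecular chaperones and their partners were followed by gene symbol in chicken muscle cells kept in growth medium or in differentiation medium. Members were the entries whose upper-cased symbol began with HSPA, HSPB, HSPD, HSPE or HSPH and a digit, HSP90, DNAJA, DNAJB, DNAJC, CCT and a digit, BAG and a digit, PFDN, or HSF and a digit, together with TCP1 and any symbol of HSP and digits alone. This rule found 72 of the 26591 gene entries, of which 11074 carried a symbol. They comprised 10 HSP70 and HSP110 genes, 3 HSP90 genes, 1 HSP60 gene, 6 small heat shock protein genes, 33 J-domain genes (4 DNAJA, 8 DNAJB and 21 DNAJC), 8 CCT subunits, 4 prefoldin subunits, 3 BAG genes and 4 entries named HSF. HSPE1, HSP25, HSP30, DNAJB1, DNAJB6, HSF1 and HSF3 had no entry of that symbol and were not analysed here.

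RNA came from primary skeletal muscle cells of chicken (Gallus gallus) embryos at passage 1, with 3 libraries labelled as myoblasts and 3 labelled as myotubes. Growth medium for the myoblasts was RPMI-1640 holding 15% fetal bovine serum. Myotubes were obtained by moving the cells to RPMI-1640 with 2% horse serum, and both media held 2% penicillin and streptomycin, so serum changed along with the state of the cells. Strain, age and sex of the embryos, the time in differentiation medium, whether replicates came from separate cultures, and the genome build of the coordinates below are not stated in the sample labels, and p-values therefore cover only the spread among the 6 libraries, which may be technical. Values of single libraries are given in the order of replicates 1, 2 and 3.

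Chaperones are proteins that bind unfolded or partly folded chains and help them reach or regain their shape. HSP70 binds short exposed stretches in a cycle driven by ATP, J-domain proteins (HSP40) bring it clients and start ATP hydrolysis, and BAG proteins and the HSP110 branch release the nucleotide. HSP90 acts late on kinases and receptors, the ring-shaped CCT complex folds actin and tubulin delivered by prefoldin, and small heat shock proteins hold unfolding proteins in a state from which they can be rescued. HSF proteins are the transcription factors of the heat shock response, and in muscle BAG3 and HSPB8 belong to the machinery that clears damaged filament proteins at the Z-disc.

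Depth ran from 21893152 to 27546527 counts per library. The 7 muscle markers mixed myoblast factors (MYOD1 and MYF5) with genes of differentiating muscle, and none was called higher in the myotube libraries. There 4 were called lower, namely DES (log2 change -2.47 ± 0.32), MYF5 (-2.93 ± 0.26), MYH15 (-1.31 ± 0.27) and MYOD1 (-0.75 ± 0.13). MYOG, TNNT3 and TMEM8C had no call. The falls of DES and MYH15, and the lack of a called rise in MYOG, TNNT3 and TMEM8C, went against the name of the myotube libraries. All 7 had counts in every library, and myoblast and myotube are used below as the names on the labels. All 5 tested markers of dividing cells were called lower in myotubes. Summed FPKM (counts scaled to gene length and library total) of 8 fibroblast markers ran from 876 to 1641 in myoblasts and from 4066 to 4759 in myotubes, and all 8 were called higher. Over 7 muscle markers the sums were 2074 to 3781 and 1116 to 1174, and over 5 markers of dividing cells 253 to 478 and 77.4 to 89.4. Leukocyte markers summed to 46.3 to 90.2 and 67.8 to 70.7 FPKM, erythroid markers to 57.6 to 104 and 19.8 to 22.4, epithelial markers to 34.6 to 83.3 and 14.5 to 16.2, nerve and Schwann cell markers to 49.7 to 66.3 and 23.6 to 27.2, and endothelial markers to 0.677 to 1.14 and 0.255 to 0.341. HBAA and HBAD were at 0 counts in 2 myotube libraries each, KDR in 1, TEK in 2 and EPCAM in 1, and no other marker was at 0 in any library. Myoblast replicate 3 stood apart from replicates 1 and 2, with a chi-square per degree of freedom over genes of 45.2 and 54.4 against them, where other pairs of a group gave 7.35 to 16.5. Among the myoblast libraries it had the highest sums of muscle, leukocyte, erythroid, epithelial and nerve markers and the lowest sums of dividing cell and fibroblast markers.

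Most cytosolic chaperone genes were lower in myotubes and the 4 prefoldin genes with an entry were higher. Those of the endoplasmic reticulum (ER) and mitochondria gave as many or more rises than falls. Of the 72 members 70 passed the filter on low counts; by the quasi-likelihood test of edgeR, with p-values adjusted by Benjamini-Hochberg over all 15959 genes tested and a threshold of 0.05, 32 were lower, 18 were higher and 20 were not called. The background in this comparison was 59.1% of genes called, 29.1% lower and 30.0% higher, against 71.4%, 45.7% and 25.7% of the tested members. The median log2 change (myotube minus myoblast throughout) was -0.23 over the members and 0.0003 over all genes tested. At least 2-fold changes were 8 falls and 3 rises among members, where 11.8% and 13.2% of all tested genes changed so far. The members together held 1.73%, 1.68% and 1.82% of summed FPKM in the myoblast libraries and 1.09%, 1.07% and 1.06% in the myotube libraries. FPKM of the groups did not overlap for 37 lower and 19 higher members, against 35.8% and 31.0% of all tested genes. In bulk RNA, fewer cells of a type and less RNA per cell cannot be told apart, and the part of the marker shifts above in these changes was not tested.

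**Figure D1:**
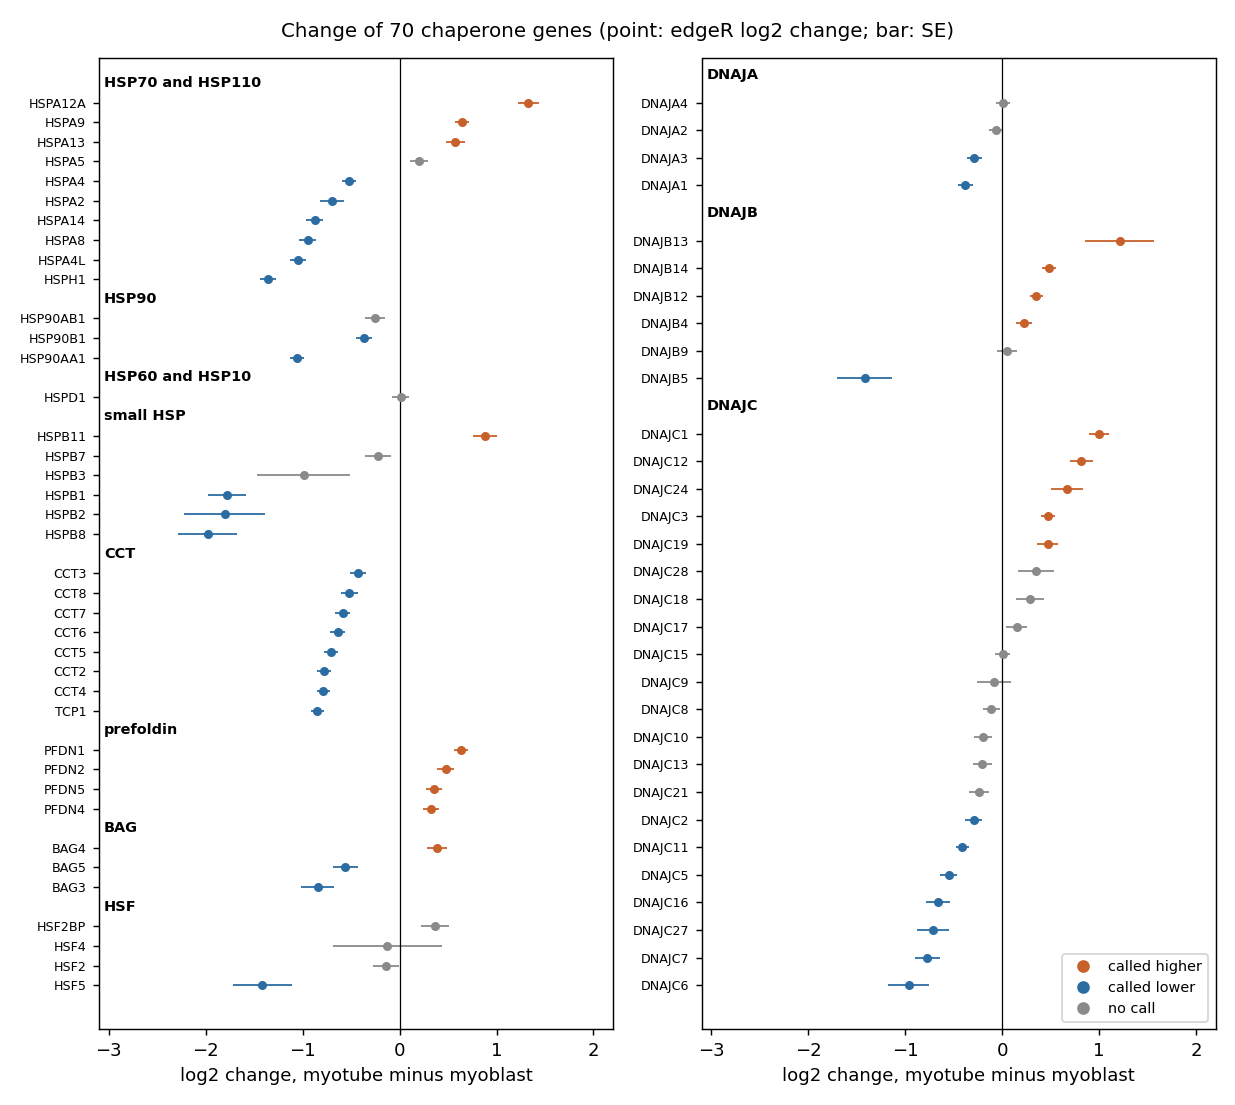
Log2 change between myotubes and myoblasts (horizontal axis, edgeR) of the 70 tested members, grouped by family, with bars of 1 SE and colour for the call. All 8 CCT genes lie below 0, all 4 prefoldin genes above it, and the J-domain genes on both sides.

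Among the HSP70 and HSP110 genes the cytosolic members fell, while the mitochondrial member and a pair of outliers of the family rose. 6 of the 10 were called lower, 3 higher and 1 neither, with a median log2 change of -0.61. The share called higher, 30.0%, was that of all genes, of which 29.1% were called lower. HSPA8, the constitutive cytosolic HSP70 (chromosome 24, 3073404 to 3080079), stood at 1717, 1583 and 1678 FPKM in myoblasts and at 870, 811 and 801 FPKM in myotubes. The groups lay far apart, and its log2 change was -0.95 ± 0.09 (SE), a 1.93-fold fall (adjusted p = 5.28e-05). HSPA8 had the highest level of all members in every library, and in myoblasts it ranked 30 to 39 among all entries by FPKM, against 129 to 135 in myotubes.

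HSPA2, a close paralog of HSPA8 (chromosome 5, 52952583 to 52954953), was at 258, 239 and 317 FPKM in myoblasts and 155, 162 and 166 FPKM in myotubes, a log2 change of -0.70 ± 0.12 (adjusted p = 0.00133). Reads of such alike genes may have been split or lost in the authors' counting, so the levels of HSPA2 and HSPA8, and those of HSP90AA1 and HSP90AB1, are uncertain to that extent. HSPA14, which in human cells pairs with the J-domain protein DNAJC2 on ribosomes, fell from 31.3 ± 3.14 to 16.4 ± 0.837 FPKM (mean ± SD, n = 3 each, log2 change -0.88 ± 0.09). DNAJC2 itself fell less, from 76.9 ± 2.24 to 60.3 ± 4.81 FPKM (-0.29 ± 0.09, adjusted p = 0.0212), and that call was lost without myoblast replicate 1 (edgeR quasi-likelihood adjusted p = 0.0564), without myotube replicate 3 (0.0818) and also without myotube replicate 2.

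The HSP110 branch, which exchanges the nucleotide of HSP70 and so restarts its cycle, was lower in all of its members. HSPH1 (chromosome 1, 175014605 to 175036647) was at 50.3, 49.6 and 48.7 FPKM in the myoblast libraries and at 17.2, 18.3 and 20.4 FPKM in the myotube libraries. That is a 2.56-fold fall (log2 change -1.35 ± 0.08, adjusted p = 6.62e-06), with myoblast libraries within 2 FPKM of each other. HSPA4L went from 92.4, 91.3 and 84.4 FPKM to 40.6, 39.1 and 45.1 FPKM (-1.05 ± 0.08), and HSPA4 from 60.5, 61.4 and 60.8 to 38.8, 39.7 and 43.9 FPKM (-0.52 ± 0.07). In none of the 3 genes did the groups overlap, as was so for 66.7% of all tested genes in either direction.

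HSPA12A, a distant relative of HSP70 with an atypical ATPase domain, rose. It was at 14.0, 12.8 and 10.5 FPKM in myoblasts and 28.7, 29.2 and 32.1 FPKM in myotubes, a 2.51-fold rise (log2 change 1.33 ± 0.11, adjusted p = 3.06e-05). It was the largest rise among the 70 tested members, though its FPKM reached at most 0.0400 of that of HSPA8 in any library.

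The HSP90 genes did not move alike. HSP90AA1, the stress-responsive cytosolic form (chromosome 5, 49564706 to 49571912), was at 1441, 1459 and 1369 FPKM in myoblasts and 639, 668 and 660 FPKM in myotubes, a 2.09-fold fall (log2 change -1.06 ± 0.07, adjusted p = 1.31e-05). HSP90AB1, the constitutive cytosolic form, was at 309, 333 and 381 FPKM and at 282, 282 and 260 FPKM. Its groups did not overlap either, but its log2 change of -0.25 ± 0.10 gave no call (adjusted p = 0.0643 by edgeR quasi-likelihood), while limma on log2(FPKM + 1) called it lower (adjusted p = 0.0250), as did edgeR without myoblast replicate 1 (adjusted p = 0.0424). The ratio of HSP90AA1 to HSP90AB1 in FPKM was 4.67, 4.39 and 3.59 in myoblasts and 2.27, 2.36 and 2.54 in myotubes. HSP90B1, the ER form, was at 366, 392 and 335 FPKM and 258, 270 and 286 FPKM (-0.37 ± 0.08, adjusted p = 0.00412).

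HSPA8 and HSP90AA1 together made up 27.1% of the members' summed FPKM in myoblasts and 19.8% in myotubes. A list of 26 further folding genes of the cytosol held partners of HSP90 among others. In it 13 were called lower, 2 higher and 11 neither, with a median log2 change of -0.28. That is 57.7% called in either direction and 7.69% called higher. Of all genes 59.1% were called, 29.1% lower and 30.0% higher. AHSA1, which stimulates the ATPase of HSP90, went from 97.8 ± 4.37 to 60.5 ± 2.37 FPKM (log2 change -0.64 ± 0.08). The HSP90 cochaperones PTGES3 (p23) and FKBP4 changed by -0.61 ± 0.08 and -0.60 ± 0.07, and CHORDC1 was among the falls too. The HSP90 partners CDC37L1, PPID, SUGT1 and UNC45A had no call, at -0.20, -0.16, -0.20 and -0.10. Both rises were regulators of HSP70, the ubiquitin ligase STUB1 (CHIP, 40.2 ± 2.29 to 62.5 ± 5.81 FPKM, 0.69 ± 0.10) and the nucleotide exchange factor HSPBP1 (0.38 ± 0.09).

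**Figure D2:**
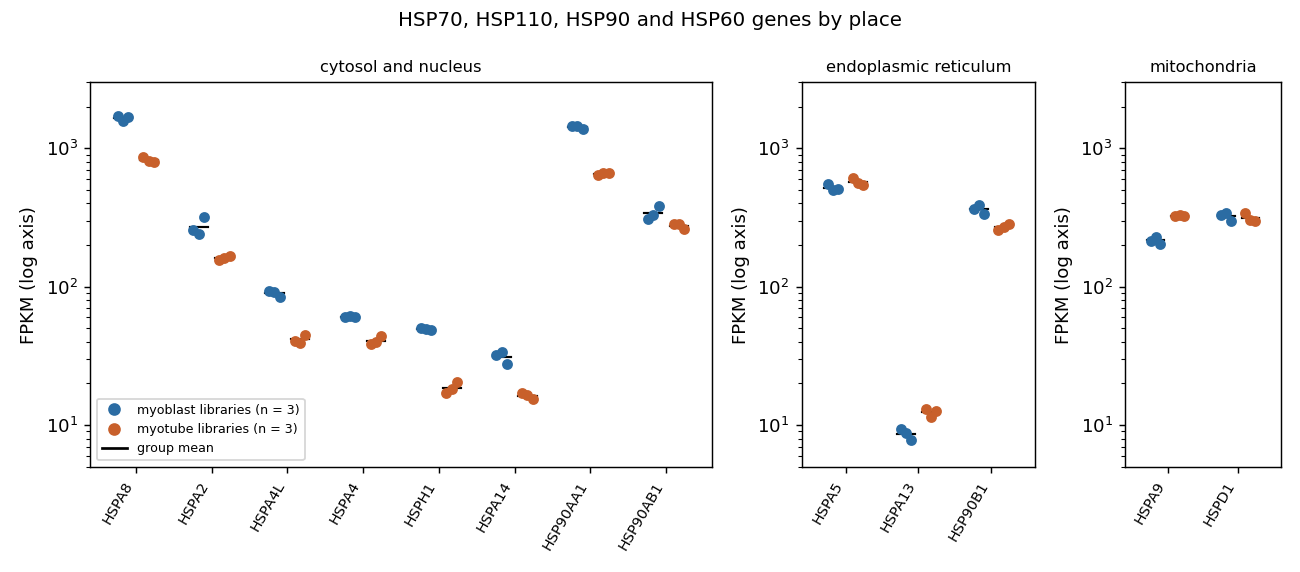
FPKM on a log axis of the HSP70, HSP110, HSP90 and HSP60 genes in each of the 6 libraries, by the place of the protein, with group means as lines. The cytosolic HSPA8, HSPH1 and HSP90AA1 lie lower in all 3 myotube libraries, HSPA9 lies higher and HSPA5 and HSPD1 overlap between groups.

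Every subunit of CCT was lower in myotubes. CCT is a double ring in which each of the different subunits has a fixed place, so its genes can be read as parts of a complex of fixed composition. TCP1, the first subunit (chromosome 3, 45727466 to 45735268), was at 413, 425 and 398 FPKM in myoblasts and at 214, 228 and 219 FPKM in myotubes, a 1.80-fold fall (log2 change -0.85 ± 0.07, adjusted p = 2.84e-05). The other falls ran from -0.79 ± 0.07 for CCT4 to -0.43 ± 0.08 for CCT3, and the median over the 8 genes was -0.67. The largest adjusted p was 0.00218, for CCT3.

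CCT2 was at 221, 242 and 221 FPKM in the myoblast libraries and 125, 131 and 128 in the myotube libraries (log2 change -0.78 ± 0.07). CCT4 went from 350, 368 and 341 FPKM to 192, 203 and 196 FPKM, and CCT5 from 399, 418 and 403 to 239, 249 and 232 FPKM (-0.70 ± 0.07). All of these libraries kept the groups apart without overlap, as did those of the remaining subunits. Such a gap, with myotubes lower, was found in 35.8% of all tested genes. CCT6 was at 397, 432 and 434 against 262, 265 and 254 FPKM (-0.64 ± 0.08), and CCT7 at 246, 263 and 220 against 150, 162 and 154 FPKM (-0.59 ± 0.08). CCT8 went from 228, 269 and 232 to 151, 173 and 166 FPKM (-0.52 ± 0.09), and CCT3 from 264, 255 and 260 to 190, 194 and 171 FPKM.

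The subunits kept the same order of levels in the myotube libraries, while among the myoblast libraries only the place of CCT4 was fixed. Per length, the highest subunit was 1.79 to 1.97 times the lowest in myoblasts and 1.99 to 2.10 times in myotubes. In all 3 myotube libraries the order by FPKM was CCT6, CCT5, TCP1, CCT4, CCT3, CCT8, CCT7 and CCT2, and in all 3 myoblast libraries CCT6, CCT5 and TCP1 held the first places and CCT4 the next. The ratio of TCP1 to CCT3, the subunits with the largest and the smallest fall, was 1.57, 1.67 and 1.53 in myoblasts and 1.13, 1.17 and 1.28 in myotubes. A further entry without a symbol covers all 10315 bases of CCT3 on the same strand, with 5507 counts over the 6 libraries against 52980 for CCT3. The level and change of CCT3, and its ratio to TCP1, are uncertain to that extent. In myoblast replicate 3 the CCT subunit farthest from the mean of the other myoblast libraries was CCT7, at -0.15 on the log2 scale. Markers of dividing cells fell with the CCT genes between the states, and their part was not tested.

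Prefoldin, the jellyfish-shaped complex that hands actin and tubulin chains to CCT, went the other way. All 4 of the subunits with an entry rose, from 0.33 ± 0.08 for PFDN4 to 0.63 ± 0.07 for PFDN1 on the log2 scale, with adjusted p from 0.000158 to 0.00953 and a median of 0.42. PFDN1 (chromosome 13, 1472878 to 1511771) was at 107, 116 and 110 FPKM in myoblasts and at 171, 162 and 162 FPKM in myotubes. PFDN1 lies across 8089 bases of CYSTM1 on the opposite strand, and the strand setting of the counting is not known. PFDN2 was at 145, 172 and 172 against 215, 223 and 216 FPKM (0.48 ± 0.09), PFDN5 at 111, 115 and 119 against 148, 145 and 133 FPKM (0.36 ± 0.08), and PFDN4 at 43.3, 44.5 and 46.5 against 56.0, 55.5 and 50.4 FPKM.

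No library of one state reached the range of the other in any prefoldin gene. Such a gap, with myotubes higher, was found in 31.0% of all tested genes. The summed FPKM of the 8 CCT genes was 6.18, 5.98 and 5.61 times that of the 4 prefoldin genes in myoblasts and 2.58, 2.74 and 2.71 times in myotubes. VBP1, a further prefoldin subunit, had no entry of that symbol, so this ratio covers only part of prefoldin. The direction of all 8 CCT and all 4 prefoldin genes was the same under every scaling tried; on log2(TPM + 1), which put the median gene at -0.13, PFDN4 was at 0.16 without a call (limma, adjusted p = 0.0822). Against a 1.5-fold threshold 3 of the CCT genes and none of the prefoldin genes were called (edgeR glmTreat). Without that threshold all 12 were called by edgeR and by DESeq2. Phosducin-like PDCL, a partner of CCT in folding G-protein beta subunits, fell (-0.55 ± 0.07), and URI1, a prefoldin-like protein, was at 0.05 ± 0.07 with no call.

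**Figure D3:**
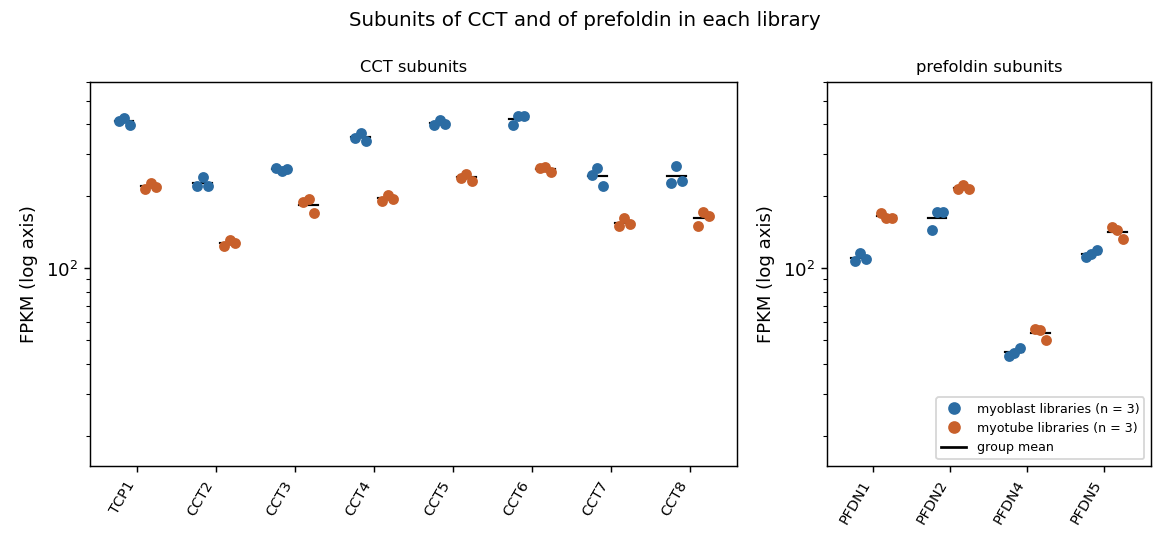
FPKM on a log axis of the 8 CCT and 4 prefoldin subunits in each library, with group means as lines. In every CCT gene the 3 myotube points lie below the 3 myoblast points, and in every prefoldin gene above them.

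The small heat shock protein genes HSPB8, HSPB2 and HSPB1 had the largest falls of all members, and their myoblast libraries differed widely. By symbol the family held 6 genes, of which 3 were called lower, 1 higher and 2 neither. Of all genes 29.1% were called lower and 30.0% higher. The median log2 change of the 6 was -1.38, or -0.77 without myoblast replicate 3. The gene called higher was HSPB11, which was counted for its name. The related crystallin CRYAB was outside the symbol rule and is in neither the counts nor the medians. HSPB1 (HSP27), which guards actin filaments (chromosome 19, 4228616 to 4230508), was at 624, 546 and 917 FPKM in myoblasts and at 211, 195 and 183 FPKM in myotubes, a 3.42-fold fall (-1.77 ± 0.20, adjusted p = 0.000134). HSPB8, the partner of BAG3 (chromosome 15, 9765688 to 9767739), was at 558, 418 and 985 FPKM and at 179, 163 and 140 FPKM, a 3.94-fold fall (-1.98 ± 0.30, adjusted p = 0.000673). HSPB2, a small heat shock protein of muscle (chromosome 24, 6209231 to 6210762), was at 20.5, 15.6 and 45.6 FPKM and at 5.64, 7.40 and 9.76 FPKM (-1.80 ± 0.41, adjusted p = 0.00576). Myoblast replicate 3 was the highest library for all of them.

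Without that library HSPB1 was at -1.50, HSPB8 at -1.53 and HSPB2 at -1.18, all still called lower by edgeR. HSPB3, also a muscle form, was low throughout, at 1.54, 1.73 and 4.11 FPKM and 1.04, 0.874 and 1.73 FPKM, with no call (-0.99 ± 0.48, adjusted p = 0.108, and -0.36 without myoblast replicate 3). HSPB7, the cardiovascular form that binds filamin in mammals, was at 30.4, 33.4 and 38.4 FPKM against 27.3, 32.5 and 24.8 FPKM, with overlapping groups and no call (-0.22 ± 0.13, adjusted p = 0.192). CRYAB, the crystallin of the same family that lies 1585 bases from HSPB2 on the opposite strand, fell from 128 ± 59.5 to 43.6 ± 3.76 FPKM (-1.51 ± 0.29, and -1.03 without myoblast replicate 3).

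HSPB11 carries the family's name but is a subunit of the transport complex of cilia (IFT25). It rose from 7.44, 7.19 and 7.32 FPKM to 13.7, 12.4 and 12.7 FPKM (log2 change 0.88 ± 0.12, adjusted p = 0.000452).

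BAG3 and BAG5 fell and BAG4 rose. BAG3, the scaffold that joins HSP70 to small heat shock proteins (chromosome 6, 30302056 to 30319962), was at 141, 127 and 198 FPKM in myoblasts and 87.9, 82.8 and 79.8 FPKM in myotubes, a 1.79-fold fall (-0.84 ± 0.17, adjusted p = 0.00296). BAG5 was at 7.73, 8.03 and 10.3 FPKM against 5.86, 5.74 and 5.46 FPKM (-0.56 ± 0.13). BAG4, known as a silencer of death domain receptors, was at 32.5, 36.2 and 32.1 FPKM against 46.6, 41.1 and 39.0 FPKM (0.39 ± 0.11, adjusted p = 0.0124). BAG3 stood highest in myoblast replicate 3 and was at -0.61 without it.

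In myoblast replicate 3, 6 of the 70 tested members lay more than 0.5 above the mean of the other myoblast libraries on the log2 scale of CPM. They were HSPB2 (1.40), HSPB3 (1.29), HSPB8 (1.08), DNAJB5 (1.05), HSPB1 (0.70) and BAG3 (0.62), and the muscle genes TNNT3 and MYH15 lay 1.25 and 1.07 above in the same library. The myosin chaperone UNC45B lay 1.11 above and fell between the states from 55.0 ± 25.3 to 9.38 ± 0.270 FPKM (log2 change -2.50 ± 0.30, adjusted p = 0.000180, and -2.03 without that library). HSF4, DNAJB13 and DNAJC9 lay more than 0.5 below, by -1.54, -0.69 and -0.67, where the dividing cell marker CDK1 lay at -0.79. Myoblast counts were few for HSF4 (13, 29 and 6), DNAJB13 (12, 17 and 9) and HSPB3 (17, 18 and 51), so their deviations are imprecise. The part of muscle content or division state in these members was not tested.

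**Figure D4:**
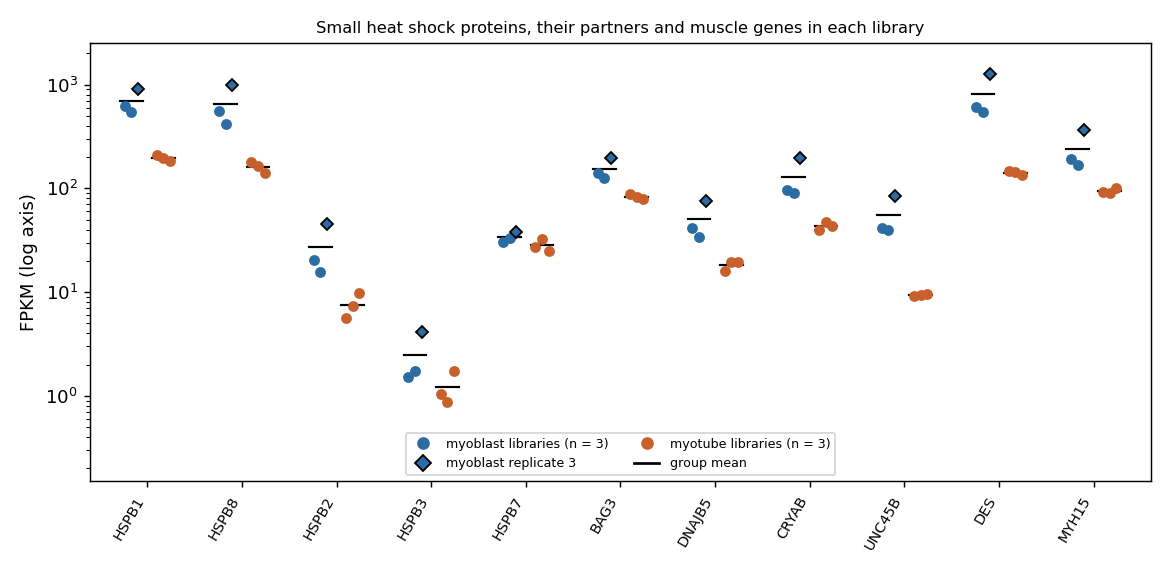
FPKM on a log axis of small heat shock protein genes, BAG3, DNAJB5, 2 further chaperones and 2 muscle genes in each library, with myoblast replicate 3 as a diamond. The diamond is the highest point of every gene shown, and for HSPB7 the groups overlap.

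The J-domain genes, which choose the clients of HSP70, were called about as often as all genes in each direction. 10 of 31 tested were called lower, 9 higher and 12 neither, or 32.3% and 29.0% against 29.1% and 30.0% of all genes, and the median log2 change was -0.06. In the DNAJA group, the closest kin of bacterial DnaJ, DNAJA1 fell from 86.9, 92.7 and 94.6 FPKM to 68.5, 63.7 and 70.7 FPKM (-0.38 ± 0.08, adjusted p = 0.00359). The mitochondrial DNAJA3 was at 84.6, 84.3 and 91.1 against 70.5, 67.9 and 66.5 FPKM (-0.29 ± 0.08, adjusted p = 0.0134). That call was lost without myotube replicate 2 or 3 (edgeR quasi-likelihood adjusted p = 0.0752 and 0.0526), and DNAJA3 overlaps an entry without a symbol on the other strand. DNAJA2 and DNAJA4 had no call, at -0.06 ± 0.07 and 0.01 ± 0.07.

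The DNAJB group gave 4 rises and 1 fall among 6 tested. With so few genes, that is 66.7% higher and 16.7% lower, against 30.0% and 29.1% of all genes. DNAJB5, a cytosolic HSP40 (chromosome Z, 8525191 to 8536632), had the only fall, from 41.6, 34.0 and 75.3 FPKM to 15.9, 19.4 and 19.4 FPKM (-1.42 ± 0.28, adjusted p = 0.00283, and -0.98 without myoblast replicate 3). DNAJB12 and DNAJB14, paired membrane proteins of the ER, rose together. DNAJB14 was at 18.6, 20.0 and 19.9 FPKM against 26.7, 26.5 and 25.6 FPKM (0.49 ± 0.07), and DNAJB12 at 36.4, 35.4 and 34.0 against 42.0, 45.4 and 42.5 FPKM (0.35 ± 0.07). DNAJB4, whose groups overlapped, was at 0.22 ± 0.08 with an adjusted p of 0.0481, and lost its call with DESeq2 (adjusted p = 0.0966), with limma on log2(FPKM + 1) (adjusted p = 0.156) and without any library except myotube replicate 1 (edgeR quasi-likelihood adjusted p from 0.0709 to 0.143). DNAJB13, known from sperm and cilia, had 116 counts in all and rose from 0.494 ± 0.196 to 1.09 ± 0.276 FPKM (1.21 ± 0.36), a call lost without myoblast replicate 1 or myotube replicate 2 (edgeR quasi-likelihood adjusted p = 0.0574 and 0.0712). DNAJB2 and DNAJB8 did not pass the filter, with 21 counts and 1 count over the 6 libraries.

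The DNAJC genes, which share only the J domain and serve many separate tasks, gave 7 falls, 5 rises and 9 without a call. That is 33.3% lower and 23.8% higher, against 29.1% and 30.0% of all genes. DNAJC7 (TPR2), which links HSP70 and HSP90, went from 79.2, 79.4 and 104 FPKM to 48.6, 49.7 and 50.2 FPKM (log2 change -0.77 ± 0.12, adjusted p = 0.000957). DNAJC6 (auxilin), which strips clathrin from vesicles, was low and fell from 1.42 ± 0.226 to 0.700 ± 0.133 FPKM (-0.96 ± 0.21). DNAJC5, the cysteine string protein of vesicles, fell as well (-0.55 ± 0.09), with 4118 counts beside an overlapping entry on the same strand with 15911 counts.

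DNAJC27, a small GTPase with a J domain, was at 11.2, 11.5 and 12.5 FPKM in myoblasts and 7.14, 7.87 and 5.61 FPKM in myotubes (-0.72 ± 0.16). DNAJC16 fell from 24.9 ± 2.77 to 15.2 ± 1.53 FPKM (-0.66 ± 0.12) and DNAJC11, a protein of the mitochondrial membrane, from 35.3 ± 0.862 to 25.5 ± 0.379 FPKM (-0.41 ± 0.07). An entry without a symbol on the opposite strand overlaps 15194 bases of DNAJC11. It had 12157 counts against 10317 for DNAJC11, and the strand setting of the counting is not known. The rises were led by ER and metabolic members. DNAJC12, a cochaperone of the enzymes that hydroxylate aromatic amino acids, went from 6.25, 6.09 and 7.17 FPKM to 10.8, 10.6 and 11.7 FPKM (0.82 ± 0.12), and DNAJC24, needed to make the diphthamide of elongation factor EEF2, from 7.76 ± 0.961 to 11.8 ± 1.70 FPKM (0.67 ± 0.17).

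Members without a call included DNAJC8 and DNAJC17 of the splicing machinery and DNAJC9, the histone-handling member, at -0.11 ± 0.09, 0.15 ± 0.11 and -0.08 ± 0.17. DNAJC9 was at 29.7, 35.3 and 19.6 FPKM in myoblasts and 25.3, 25.0 and 26.2 FPKM in myotubes, so the myotube libraries lay inside the myoblast range. Without myoblast replicate 3 edgeR called DNAJC9, DNAJC10 and DNAJC21 lower (-0.28, -0.29 and -0.30) and DNAJC18 higher (0.42), while DNAJB4 lost its call. The counts of members were then 35 lower and 18 higher, against 30.2% and 31.3% of all genes tested in that fit.

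Sorted by the known place of the protein, a grouping made after the values were seen, the cytosolic and nuclear members stood apart from the others in their counts. Of 43 tested, 25 fell (58.1%) and 7 rose (16.3%), against 29.1% and 30.0% of all genes, with a median log2 change of -0.52. Among 11 ER members 5 rose (45.5%) and 2 fell (18.2%), with a median of 0.28. Among 6 mitochondrial members 2 rose and 2 fell (33.3% each, near the shares of all genes), with a median of 0.01. These counts are a description, since the difference between the places was not tested.

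The main ER chaperone gave no call, and the J-domain members placed in the ER went both ways: DNAJC1, DNAJC3, DNAJB12 and DNAJB14 rose, DNAJC16 fell, and DNAJB9, DNAJC10 and DNAJC18 had no call. HSPA5 (BiP, chromosome 17, 10076957 to 10081027) was at 549, 502 and 510 FPKM in myoblasts and 614, 565 and 546 FPKM in myotubes, with overlapping groups and no call (0.20 ± 0.09, adjusted p = 0.0808). The ratio of HSPA8 to HSPA5 in FPKM went from 3.13, 3.15 and 3.29 to 1.42, 1.44 and 1.47. DNAJC1, a J-domain protein of the ER membrane (chromosome 2, 17839631 to 17932733), rose 2.00-fold, from 40.5, 42.2 and 33.2 FPKM to a mean of 74.2 ± 5.41 FPKM (SD, n = 3; adjusted p = 8.87e-05).

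DNAJC3 (p58IPK), a cochaperone of BiP, was at 59.5, 63.9 and 64.0 FPKM against 80.8, 83.3 and 85.8 FPKM (0.47 ± 0.07, adjusted p = 0.000678). HSPA13, an ER-bound HSP70 without the substrate-binding part, rose from 8.64 ± 0.811 to 12.4 ± 0.802 FPKM (0.58 ± 0.09). DNAJB9 (ERdj4), which in mammals is strongly induced by ER stress, was at 18.2, 19.0 and 21.8 against 20.7, 18.6 and 19.5 FPKM with no call (0.05 ± 0.10, adjusted p = 0.694). DNAJC10, a J-domain protein with reductase activity, was at 30.4 ± 4.04 and 25.5 ± 0.290 FPKM with no call (-0.20 ± 0.10, and called lower at -0.29 without myoblast replicate 3).

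The list of other ER folding genes held more rises than falls. 23 of 37 were called higher, 3 lower and 11 neither, with a median log2 change of 0.37. That is 62.2% higher and 8.11% lower, against 30.0% and 29.1% of all genes. The genes of ER-associated degradation DERL3, SEL1L and HERPUD1 rose 3.58-fold, 3.19-fold and 2.36-fold, and XBP1, the transcription factor of the unfolded protein response, went from 119 ± 12.1 to 219 ± 6.56 FPKM (0.94 ± 0.08). SERPINH1 (HSP47), the chaperone of collagen, rose from 319 ± 61.7 to 820 ± 55.5 FPKM (1.42 ± 0.14) and the collagen isomerase FKBP10 3.50-fold. The falls were in calnexin (CANX, -0.71 ± 0.07), CRELD2 (-0.34 ± 0.10) and HYOU1 (-0.33 ± 0.08), an exchange factor of BiP, whereas SIL1, another exchange factor of BiP, rose (0.44 ± 0.13, adjusted p = 0.0191). COL1A2, a collagen chain and fibroblast marker, rose in the same libraries from 649 ± 209 to 2408 ± 170 FPKM, and its part in the rise of the ER genes was not tested.

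In mitochondria HSP70 and HSP60 separated. HSPA9 (mortalin), the HSP70 of the matrix (chromosome 13, 2764275 to 2785877), was at 215, 229 and 205 FPKM in myoblasts and 323, 331 and 322 FPKM in myotubes, a 1.56-fold rise (0.65 ± 0.07, adjusted p = 0.000127). HSPD1 (HSP60), the chamber chaperone of the matrix, was at 328, 344 and 301 against 339, 304 and 298 FPKM with no call (0.01 ± 0.09, adjusted p = 0.927). The ratio of HSPA9 to HSPD1 in FPKM was 0.656, 0.667 and 0.681 in myoblasts and 0.954, 1.09 and 1.08 in myotubes. HSPD1 overlaps 893 bases of an entry without a symbol on the opposite strand, which was called lower (-0.25 ± 0.08).

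Partners of HSPA9 rose with it in part. The exchange factor GRPEL1 went from 65.1 ± 2.22 to 121 ± 10.1 FPKM (0.95 ± 0.09), HSCB, which serves it in iron-sulfur cluster assembly, from 48.7 ± 1.58 to 90.6 ± 9.54 FPKM (0.95 ± 0.10), and DNAJC19 of the import motor from 56.3, 62.9 and 64.3 to 88.7, 75.1 and 80.3 FPKM (0.47 ± 0.10). DNAJC15, its paralog, was at 0.01 ± 0.08 with no call, and TIMM44, which anchors the motor, fell (-0.49 ± 0.07). So did the mitochondrial J-domain gene DNAJA3 (-0.29 ± 0.08), whose call was lost without myotube replicate 2 or 3. Over the whole list of 14 further mitochondrial folding and protease genes 4 rose, 4 fell and 6 had no call, with a median log2 change of 0.03. The 28.6% in each direction lay near the 30.0% higher and 29.1% lower of all genes.

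**Figure D5:**
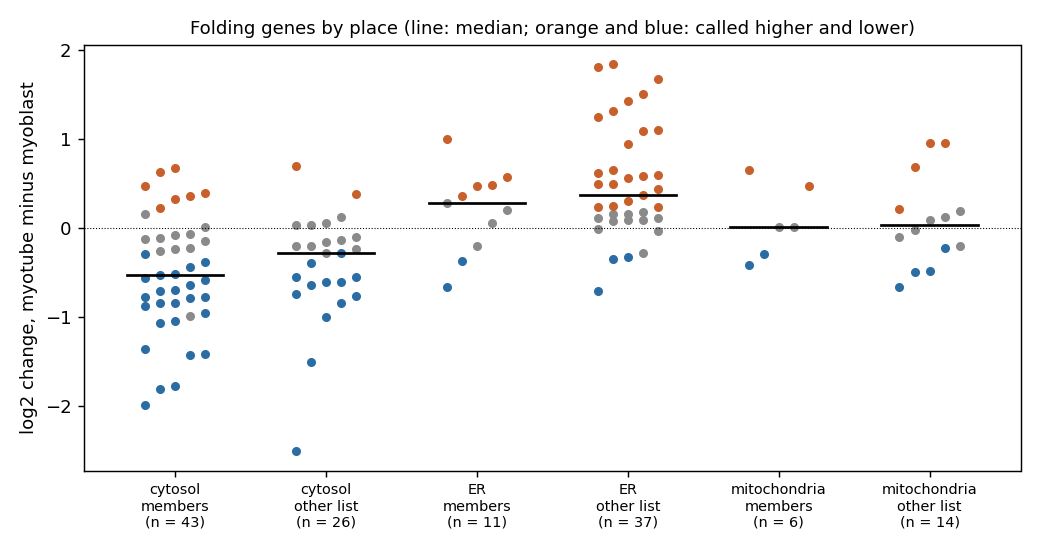
Log2 change of the tested members in the cytosol and nucleus (43), the ER (11) and mitochondria (6), and beside each of the further folding genes of the same place (26, 37 and 14), with medians as lines. Medians are -0.52 and -0.28 in the cytosol, 0.28 and 0.37 in the ER and 0.01 and 0.03 in mitochondria. The 10 tested members of other or no assigned place are not shown.

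Of the 4 HSF entries only HSF5 was called, or 25.0% against 59.1% of all genes. HSF2, a factor active in development and the only HSF entry with more than 10 FPKM, was at 84.9, 75.7 and 105 FPKM in myoblasts and 83.2, 74.0 and 74.6 FPKM in myotubes, with overlapping groups and no call (-0.14 ± 0.14, adjusted p = 0.395). HSF4 had 87 counts in all and no call (-0.13 ± 0.56, adjusted p = 0.862). HSF5, a factor of the germ line, fell from 0.692 ± 0.155 to 0.246 ± 0.0458 FPKM on 122 counts (-1.42 ± 0.30, adjusted p = 0.00403). HSF2BP, a meiotic protein named for its binding of HSF2, was at 4.77, 5.54 and 4.13 against 6.20, 5.85 and 5.77 FPKM with no call (0.36 ± 0.14, adjusted p = 0.0565).

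Across the 70 tested members the level and the change were weakly related. The rank correlation of mean FPKM with log2 change was -0.22, given as a description since the genes share the same 6 libraries. Members called lower had a median level of 78.5 FPKM, those called higher 41.9 FPKM and those without a call 29.5 FPKM. The closest members on a chromosome were DNAJC18 and HSPA9, 334265 bases apart on chromosome 13.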

How the data were processed

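Per the submitters' processing notes, reads were handled with HISAT and HTSeq, without stated versions. The authors deposited, for each of the 6 libraries, whole-number counts per gene and FPKM values, without a stated strand setting or genome build. Lines that name no gene were left out. Library totals ran from 21893152 to 27546527 counts, and genes with few counts are correspondingly less precise. Counts were tested in R 4.3.3 with edgeR 4.0.16 (quasi-likelihood fit on group, TMM scaling, minimum count 10 and total 15), with Benjamini-Hochberg adjustment over all genes tested and a threshold of 0.05. The SE of a log2 change was taken as its size divided by the square root of F, an approximation. FPKM, scaled to length, gave the levels. Deposited FPKM lay within 1% of counts over listed length and library total for 66.6% of values of all genes. For members the share was 50.8%, so levels and ratios between different genes are uncertain to that extent. DESeq2 1.42.0, limma 3.58.1 on log2(FPKM + 1), log2(TPM + 1) computed from FPKM, other filters and leaving out each library were alternatives. The tests were tried on simulated counts with few changed genes and an equal spread in all libraries. That setting held no library standing apart, so it cannot show how the tests behave with myoblast replicate 3. Members and lists were chosen with earlier results of these data known. Named members were the CCT and prefoldin genes, a fixed set of well-known chaperones, and the 4 strongest called changes of each family above a mean of 2 FPKM. Further members, and the grouping by place, were chosen after their values were seen.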

Additional observations from a re-analysis of the deposited data

How the results depend on the processing

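No member reversed a call under any alternative tried. Families had no test of their own. The HSF median changed sign, from -0.13 by edgeR to 0.11 without myoblast replicate 2 and 0.04 by limma on log2(FPKM + 1). Of the 50 called members 49 kept their call with DESeq2, 48 with limma on log2(FPKM + 1) and 46 in all 6 fits that left out a library, where DNAJA3, DNAJB4, DNAJB13 and DNAJC2 lost it. With a replicate block in edgeR 17 members were called higher and 32 lower, with 4579 and 4381 of all genes. There DNAJB4 alone lost its call (edgeR quasi-likelihood adjusted p = 0.0882). Deviations from the group means correlated at 0.04, 0.03 and -0.05 between libraries of equal replicate number, and at -0.12 to 0.10 between those of unequal number. Such values cannot show whether libraries of equal number shared a culture or batch. The median change of CCT was -0.72 by limma on log2(FPKM + 1), with or without a filter, -0.73 with a pseudocount of 0.1 and -0.72 with 5, and that of the small heat shock proteins was -0.75 with 5. On log2(TPM + 1) the median over 14776 genes was -0.13 against 0.01 by edgeR, and 39.2% of calls were rises against 50.7%. On that scale the medians were -0.83 for CCT, -0.33 for DNAJA, 0.12 for DNAJB, -0.76 for HSP70 and HSP110, -0.53 for HSP90 and 0.26 for prefoldin. Against a 1.5-fold threshold 4 members were higher and 13 lower, with 2279 and 1946 of all genes. Leaving out each library gave medians from -0.70 to -0.64 for CCT, -0.28 to 0.11 for HSF, -0.66 to -0.53 for HSP70 and HSP110 and -1.56 to -0.77 for the small heat shock proteins, the last without myoblast replicate 3. The cause of these shifts was not tested. With 3 libraries per group, members with few counts such as HSF4 and DNAJB13 could show only large differences.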
